A study of Mus musculus with 8 samples.

Results

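The genes described here encode the replicative helicase of the cell and the factors that load and activate it: the 6 subunits of the MCM2-7 ring (Mcm2, Mcm3, Mcm4, Mcm5, Mcm6 and Mcm7), the loaders Cdc6 and Cdt1, and the activation factors Cdc45 and Mcm10. They were chosen by symbol, as rows of the array whose annotation names 1 of these genes and no other. All 10 have exactly 1 row, all 10 passed the filter on dim rows, and they stand among 15007 genes tested. The study asked how ST2, which binds interleukin-33, acts in regulatory T cells while muscle regenerates. ST2 flox samples came from male C57BL/6 mice that carry Foxp3-Cre and a floxed ST2 gene, and ST2 WT samples from males with the same Foxp3-Cre and the wild-type gene, so the controls carry the Cre as well. Both groups had 4 samples (flox 1 to 4 and WT 1 to 4), each on its own Affymetrix Mouse Gene 1.0 ST array. The sample labels give 10 weeks of age and the series text 2 months. The tibialis anterior, a muscle of the lower leg, was frozen for 8 seconds with a probe cooled in liquid nitrogen and taken whole on day 8.

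Before a cell copies its DNA, the origin recognition complex together with Cdc6 and Cdt1 places double rings of MCM2-7 on the chromosome, a step called licensing. Once S phase begins, kinases, Cdc45, the GINS complex and Mcm10 turn each ring into an active helicase that unwinds DNA ahead of the polymerases. Quiescent cells and mature muscle fibres hold little MCM protein, so these genes are widely used as signs of cycling cells, and E2F transcription factors are known to drive them at the G1 to S transition. On day 8 after injury a muscle contains regenerating fibres, myoblasts, stromal cells and leukocytes, any of which may be cycling.

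All values are levels on the log2 scale of the authors' RMA intensities, and all differences are flox minus WT in log2 units with the standard error from limma. The median linear intensity per array lay between 185 and 189. Fibre markers were present in both groups, with a mean level over 12 genes of 13.06 to 13.15 on the flox arrays and 13.00 to 13.19 on the WT arrays. Foxp3-Cre acts in Foxp3-expressing cells, which are a small part of a whole muscle, and the floxed gene is not analysed here. The labels number the samples without saying that each is a separate animal, so p-values reflect how far these samples spread, and that spread may be technical. In whole tissue, a change in the number of cycling cells and a change in transcript per cell cannot be told apart. The flox arrays spread widely in macrophage and stromal transcripts. The mean over 13 macrophage and monocyte markers was 0.44 below the overall mean on flox 4. On flox 2 and flox 1 it was 0.44 and 0.36 above the overall mean. The mean over 9 fibro-adipogenic progenitor markers was 0.42 below the overall mean on flox 4 and 0.31 above it on flox 1. Array WT 4 stood apart in skin transcripts, with a mean over 7 keratinocyte markers 1.26 above the overall mean.

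Mcm4 and Mcm6, a pair of ring subunits, had the largest differences of the 10 genes, and the other 8 differed by less than 0.12. The mean of 9 of the 10 genes was higher in flox than in WT muscle, where 48.8% of all genes tested were higher, and 10 of 10 were higher after quantile normalization or cyclic loess, under which Cdc6 changed sign. The median difference of the 10 was 0.056, or 1.04-fold, beside -0.0025 over all genes. It lay between 0.038 (without WT 2) and 0.103 (without flox 1) when 1 array was left out. With the mean of the T cell markers as a covariate, an alternative chosen after seeing the data, it was -0.036 with 4 of 10 genes higher. The T cell markers separated all 4 flox arrays from the WT arrays, so in that fit covariate and genotype cannot be told apart. With the macrophage and monocyte markers as a covariate, likewise added, the median difference was 0.067 with 9 of 10 genes higher. None of the 10 passed an adjusted p of 0.05 in limma, as was true of all 15007 genes (0%). At an unadjusted p under 0.05 there were 2 of 10 (Mcm4 and Mcm6), beside 3.79% of all genes, or 569 genes. For 1 of 10 (Mcm4) the groups did not overlap, beside 1.97% of all genes.

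**Figure D1:**
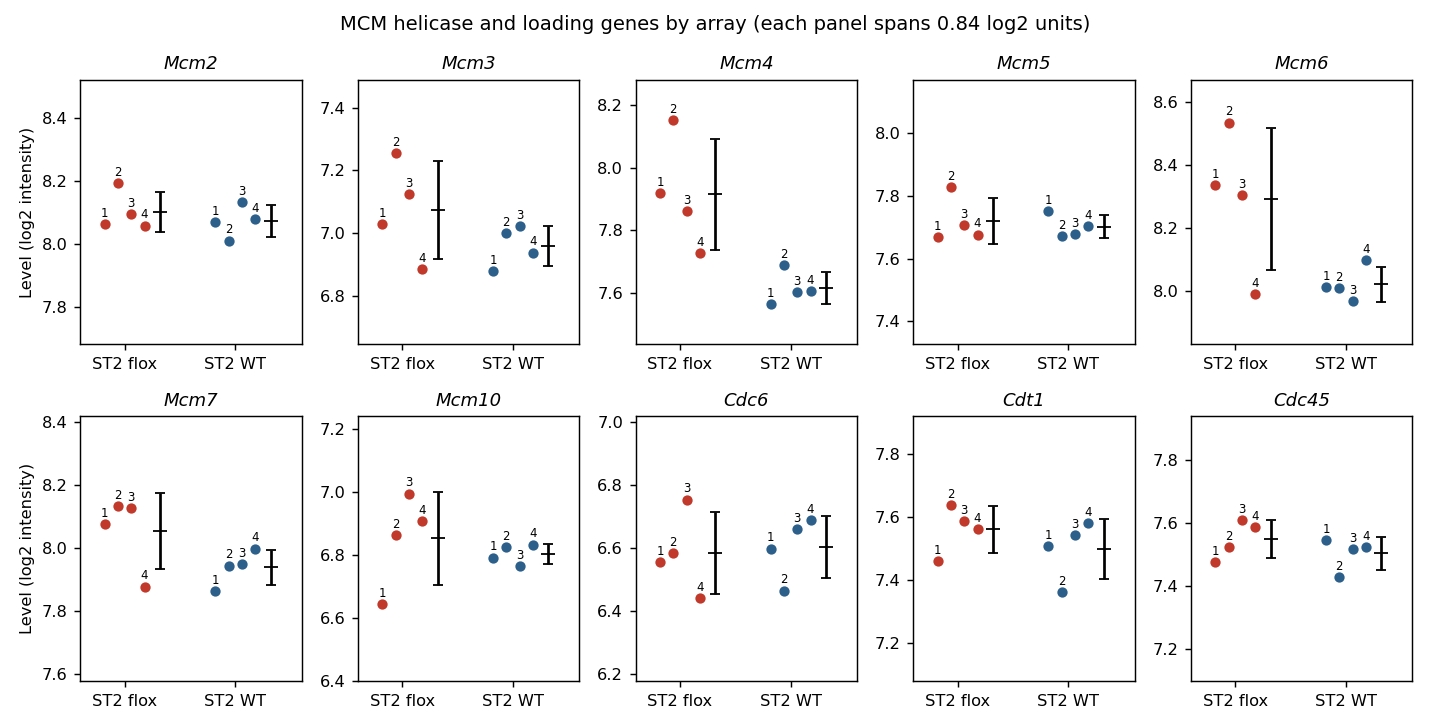
Log2 level of each of the 10 genes on the 4 ST2 flox arrays (red, left) and the 4 ST2 WT arrays (blue, right), with array numbers beside the points and the group mean ± SD in black. Each panel spans the same height, and Mcm4 is the gene whose flox points all lie above its WT points.

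Mcm4 is a subunit of the ring whose long N-terminal tail is a target of the kinase that starts replication. Its level was 7.92, 8.15, 7.86 and 7.73 on flox arrays 1 to 4, against 7.57, 7.69, 7.60 and 7.61 on WT arrays 1 to 4. Every flox array lay above every WT array, with flox 2 highest and flox 4 only just above WT 2. The group means were 7.92 ± 0.18 in flox and 7.62 ± 0.05 in WT (SD, n = 4 each), a difference of 0.30 (SE 0.08) or 1.23-fold, with a limma 95% interval of 0.11 to 0.49. The exact two-sided permutation p was 0.0286, the smallest that 4 against 4 arrays can give, while limma gave an unadjusted p of 0.00521 and an adjusted p of 0.912 over all genes. Mcm4 ranked 29th of all genes by its limma p.

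Mcm6 lies next to Mcm4 in the ring. Its level was 8.34, 8.54, 8.31 and 7.99 on flox arrays 1 to 4, against 8.01, 8.01, 7.97 and 8.10 on WT arrays 1 to 4. Flox arrays 1 to 3 stood above all WT arrays, but flox 4 fell within the WT range, so the groups overlap. The means were 8.29 ± 0.23 in flox and 8.02 ± 0.05 in WT (SD, n = 4 each), a difference of 0.27 (SE 0.10; 95% interval 0.05 to 0.49) or 1.21-fold. The exact permutation p was 0.114, and the limma p was 0.0219 before and 0.912 after adjustment. Without flox 4 the difference of Mcm6 was 0.37 (limma unadjusted p = 3.44e-04, adjusted p 0.122), in a fit where 3003 of 15006 genes, or 20%, had an unadjusted p under 0.05. Without flox 2 it was 0.19 (limma unadjusted p = 0.0631). For Mcm4 the difference was 0.36 without flox 4 and 0.22 without flox 2.

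Mcm7 and Mcm3 had smaller differences, again with flox 4 the lowest flox array. Mcm7, the other neighbour of Mcm4 in the ring, was at 8.08, 8.13, 8.13 and 7.88 on flox arrays 1 to 4 and at 7.86, 7.94, 7.95 and 8.00 on WT arrays 1 to 4. Mcm3, which sits between Mcm5 and Mcm7, was at 7.03, 7.26, 7.12 and 6.89 on flox arrays 1 to 4 and at 6.88, 7.0, 7.02 and 6.94 on WT arrays 1 to 4. In both genes flox arrays 1 to 3 were above every WT array and flox 4 was among them. Mcm7 differed by 0.12 (SE 0.07, exact permutation p = 0.114) and Mcm3 by 0.11 (SE 0.08, exact permutation p = 0.229). Without flox 4 these differences were 0.17 for Mcm7 and 0.18 for Mcm3, with limma unadjusted p of 0.0108 and 0.0285, and neither passed after adjustment. In that fit 20% of all genes reached an unadjusted p under 0.05. Without flox 2 the difference of Mcm3 was 0.05.

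Mcm2 and Mcm5, which flank the gate through which the ring is opened onto DNA, had nearly equal group means. Mcm2 was at 8.06, 8.19, 8.09 and 8.06 on flox arrays 1 to 4, against 8.07, 8.01, 8.13 and 8.08 on WT arrays 1 to 4. Mcm5 was at 7.67, 7.83, 7.71 and 7.68 on flox arrays 1 to 4, against 7.75, 7.67, 7.68 and 7.70 on WT arrays 1 to 4. Flox 2 was the highest array in both genes, and the other 3 flox arrays lay within the WT range or just under it. The differences were 0.029 for Mcm2 (95% interval -0.10 to 0.15, exact permutation p = 0.514) and 0.019 for Mcm5 (95% interval -0.11 to 0.14, exact permutation p = 0.714). Without flox 2 both turned slightly negative, at -0.0014 for Mcm2 and -0.016 for Mcm5.

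**Figure D2:**
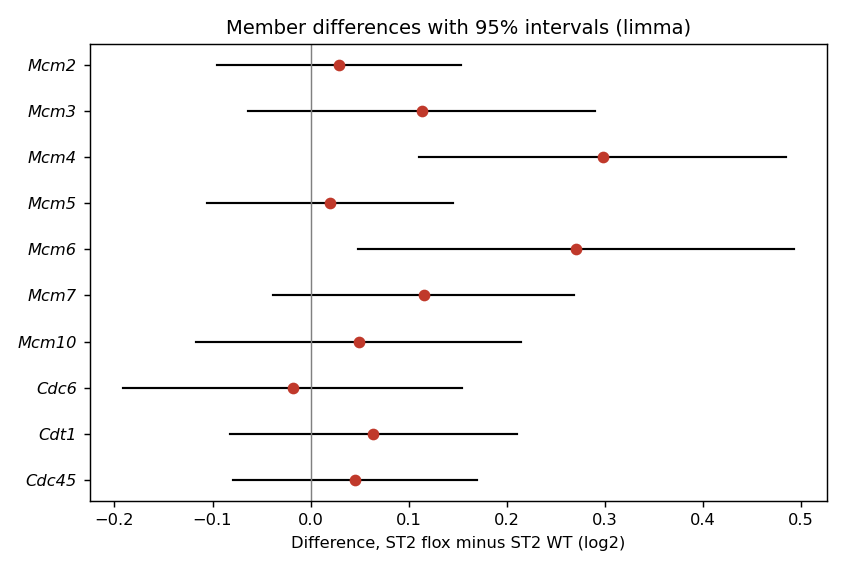
Difference in log2 level, ST2 flox minus ST2 WT, for each of the 10 genes (points), with limma's 95% interval (lines) and 0 marked by a vertical line. The intervals of Mcm4 (0.11 to 0.49) and Mcm6 (0.05 to 0.49) lie above 0 and the other 8 span it.

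The ring holds 1 copy of each of the 6 subunits, so the relative change of subunits was also described as the ratio of one to another on each array. Of the 15 pairs of ring subunits, 2 had ratios that did not overlap between the groups. These were Mcm4 over Mcm5, where the log2 ratio was 0.28 higher in flox, and Mcm4 over Mcm3, where it was 0.18 higher. Both hold Mcm4, whose own level did not overlap between the groups, so they are not separate results. The share of non-overlapping ratios over all pairs of genes was not computed. Mcm4 over Mcm2 was 0.27 higher, with flox 4 below WT 2. Mcm6 was 0.25 higher in flox relative to Mcm5 and 0.24 relative to Mcm2, and for both ratios flox 4 was inside the WT range. The ratio of Mcm4 to Mcm6 differed by only 0.027, and those of Mcm2 to Mcm5 and of Mcm7 to Mcm3 by 0.0095 and 0.0020. No test was run on these ratios, since the genes were chosen with earlier results of the same arrays known.

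The promoters of these genes are shown because the ring subunits are textbook targets of E2F, and a reader may compare a gene with a larger difference (Mcm6), an intermediate one (Mcm7) and a pair with almost none (Mcm5 and Mcm2). Each run is 300 bases of RefSeq sequence on build GRCm38.p6, from 250 bases before the annotated start to 50 from it, read 5′ to 3′ along the gene's own strand. Capitals mark E2F words (TTTCCCGC, TTTGGCGC, TTTCGCGC or TTTGCCGC) and CCAAT boxes (CCAAT), each searched on both strands.
Mcm6, chr1:128359656-128359955, minus strand: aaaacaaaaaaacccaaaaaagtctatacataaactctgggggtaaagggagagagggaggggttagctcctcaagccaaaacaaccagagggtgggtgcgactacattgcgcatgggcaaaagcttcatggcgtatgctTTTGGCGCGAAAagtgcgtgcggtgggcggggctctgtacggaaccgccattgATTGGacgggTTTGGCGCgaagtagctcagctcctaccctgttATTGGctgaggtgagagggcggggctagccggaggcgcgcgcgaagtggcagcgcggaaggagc
Mcm7, chr5:138171834-138172133, minus strand: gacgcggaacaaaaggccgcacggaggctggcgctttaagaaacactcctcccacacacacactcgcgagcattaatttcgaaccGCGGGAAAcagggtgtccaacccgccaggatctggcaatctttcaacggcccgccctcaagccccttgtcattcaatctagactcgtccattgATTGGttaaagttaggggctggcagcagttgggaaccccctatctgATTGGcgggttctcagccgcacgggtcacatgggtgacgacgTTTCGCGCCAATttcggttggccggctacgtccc
Mcm5, chr8:75109259-75109558, plus strand: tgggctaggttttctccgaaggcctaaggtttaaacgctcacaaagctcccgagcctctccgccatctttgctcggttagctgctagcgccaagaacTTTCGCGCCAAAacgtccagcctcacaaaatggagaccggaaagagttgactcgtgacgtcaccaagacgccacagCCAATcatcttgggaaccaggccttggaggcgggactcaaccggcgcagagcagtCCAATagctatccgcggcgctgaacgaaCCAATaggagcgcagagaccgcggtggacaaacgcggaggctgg
Mcm2, chr6:88898731-88899030, minus strand: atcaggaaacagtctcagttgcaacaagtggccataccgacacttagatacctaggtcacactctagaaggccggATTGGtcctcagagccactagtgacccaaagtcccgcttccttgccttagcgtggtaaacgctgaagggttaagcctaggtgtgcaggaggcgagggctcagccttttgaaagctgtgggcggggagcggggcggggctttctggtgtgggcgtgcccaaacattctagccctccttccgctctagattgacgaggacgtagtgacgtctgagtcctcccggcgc

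The promoter table held 9 of the 10 genes, all but Mcm4. An E2F word was found in 6 of these 9 (Mcm3, Mcm5, Mcm6, Mcm7, Cdc6 and Cdt1), while 2.60% of 27025 genes with a promoter in the table held one. Of the 9 genes, 3 (Mcm3, Mcm6 and Mcm7) held 2 or more E2F words that did not overlap, beside 0.0999% of all genes. In Mcm6 the words began at positions -110, -106 and -47 from the start, and the first pair overlaps on opposite strands. Mcm5 holds such an overlapping pair at -153 and -149. In the upstream Mcm7 start shown, the word at 17 shares its last base with a CCAAT box, and a window at its other annotated start held no E2F word. A CCAAT box was present in 7 of the 9, beside 41.1% of all genes and 41.4% of those also tested. The CHR word TTTGAA of late cell cycle genes was in 2 of the 9 (Mcm2 and Cdc45), beside 20.2% of all genes and 14.4% of those also tested. The GC box GGGCGG was in 7 of the 9, beside 38.2% of all genes and 63.5% of the 11846 genes that were both tested here and present in the promoter table. Mcm6 and Mcm5 both hold E2F words, with differences in level of 0.27 and 0.019. Mcm2, whose level differed by 0.029, holds no E2F word in this window, though it holds a CCAAT box, a CHR word and 2 GC boxes. A match of letters is a description of the sequence and does not show binding.

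For both loaders the groups overlapped and differed by less than their spread. Cdc6, the ATPase that brings MCM rings to the origin recognition complex, was at 6.56, 6.58, 6.75 and 6.44 on flox arrays 1 to 4, against 6.60, 6.46, 6.66 and 6.69 on WT arrays 1 to 4. It had both its highest and its lowest value on a flox array and a difference of -0.018 (SE 0.078, exact permutation p = 0.83), close to the filter at 6.35 in level. Cdt1, which carries the ring to the loader and is destroyed once replication begins, was at 7.46, 7.64, 7.59 and 7.56 on flox arrays 1 to 4, against 7.51, 7.36, 7.54 and 7.58 on WT arrays 1 to 4. Its groups overlapped and its difference was 0.064 (95% interval -0.08 to 0.21, exact permutation p = 0.371), or 0.018 without WT 2 and 0.098 without flox 1.

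The activation factors also overlapped between genotypes. Cdc45, which joins the loaded ring to form the active helicase, was at 7.47, 7.52, 7.61 and 7.59 on flox arrays 1 to 4, against 7.55, 7.43, 7.52 and 7.52 on WT arrays 1 to 4. Mcm10, which is not a ring subunit but helps the assembled helicase to start, was at 6.64, 6.86, 6.99 and 6.91 on flox arrays 1 to 4, against 6.79, 6.82, 6.76 and 6.83 on WT arrays 1 to 4. For Mcm10 the flox arrays 2 to 4 were above every WT array and flox 1 was below them all. In Mcm3, Mcm4, Mcm6 and Mcm7 the lowest flox array was flox 4 instead. Cdc45 differed by 0.045 (SE 0.056, exact permutation p = 0.286), by 0.020 without WT 2 and by 0.070 without flox 1. Mcm10 differed by 0.049 (SE 0.075, exact permutation p = 0.571), by 0.12 without flox 1 (limma unadjusted p = 0.0716) and by 0.0015 without flox 3 (limma unadjusted p = 0.985).

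Much of the difference lay in the spread of the flox arrays. The mean of the 10 genes, each centred over the 8 arrays, was 0.0019, 0.149, 0.095 and -0.049 on flox arrays 1 to 4, against -0.062, -0.081, -0.038 and -0.016 on WT arrays 1 to 4. Relative to the WT average these flox values are 1.04-fold, 1.15-fold, 1.11-fold and 1.00-fold. Flox 2 was the highest of all 8 arrays for 7 of the 10 genes and flox 3 for the other 3. The SD was larger in flox than in WT for 9 of the 10 genes, Cdt1 being the exception, where 66.1% of all genes had the larger SD in flox. The median SD of the 10 genes was 0.124 in flox and 0.053 in WT, beside 0.113 in flox and 0.082 in WT over all genes.

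**Figure D3:**
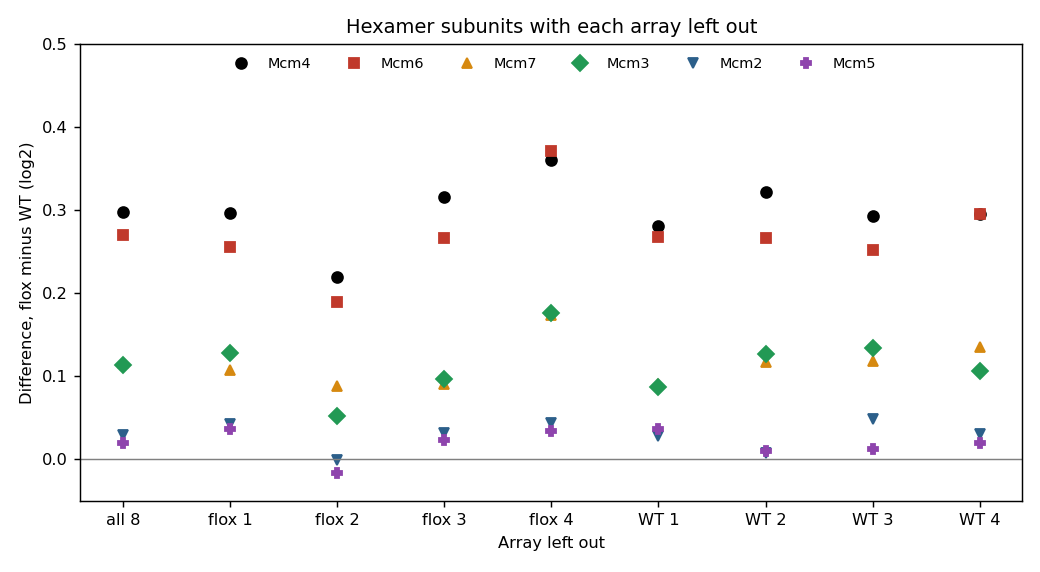
Difference in log2 level, ST2 flox minus ST2 WT, of the 6 ring subunits with all 8 arrays and with each array left out in turn. Mcm4 stays between 0.22 and 0.36 and Mcm6 between 0.19 and 0.37, with the lowest values without flox 2 and the highest without flox 4.

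On flox 2, the array highest for all 6 ring subunits, the centred means of the macrophage and T cell markers were also highest. The order of the other flox arrays was not shared. Flox 1 was second highest for the macrophage (0.363) and T cell markers (0.171), where the mean of the 10 genes was 0.0019. Flox 3 was second highest for the 10 genes (0.095), with macrophage markers at 0.054 and T cell markers at 0.073. All 13 macrophage and monocyte markers tested were higher on average in flox, and the mean level of the list was 9.11 to 9.99 on the flox arrays, against 9.39 to 9.56 on the WT arrays. Of the 10 T cell markers tested 9 were higher on average in flox, with list means of 7.18 to 7.55 on the flox arrays, against 7.12 to 7.14 on the WT arrays. No marker of either list is at 0 on these arrays, where values are never 0, and the dimmest T cell marker, Cd3d, fell under the filter. In a fit that held the macrophage list constant as a covariate, chosen after seeing the data, Mcm4 differed by 0.22 (SE 0.06) and Mcm6 by 0.16 (SE 0.06). With the T cell list as a covariate, likewise added, Mcm4 differed by 0.031 (SE 0.082) and Mcm6 by -0.064 (SE 0.088). The T cell list itself separated all 4 flox arrays from the WT arrays, so in that fit the covariate and the genotype cannot be told apart. Other leukocyte lists were not highest on flox 2. Of the 4 neutrophil markers tested 1 averaged higher in flox, and their centred mean was lowest on flox 2, at -0.138. Of the 3 B cell markers tested 2 averaged higher in flox, with a centred mean of -0.003 on flox 2. Satellite cell and myoblast markers ranged from 9.21 to 9.48 on the flox arrays and from 9.29 to 9.35 on the WT arrays, with the lowest value on flox 1 and the highest on flox 4. Fibro-adipogenic progenitor markers, of which 5 of 9 tested averaged higher in flox, ranged from 10.47 on flox 4 to 11.20 on flox 1, against 10.82 to 10.99 on the WT arrays. The part of these last 2 lists in the result was not tested.

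**Figure D4:**
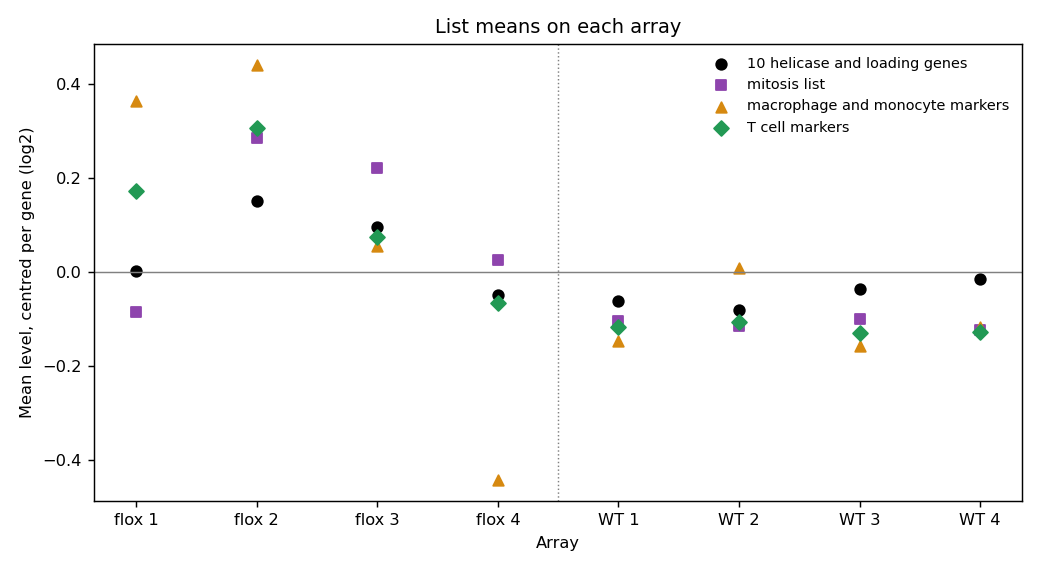
Mean log2 level, centred per gene, of the 10 helicase and loading genes, the mitosis list, the macrophage and monocyte markers and the T cell markers on each of the 4 ST2 flox and 4 ST2 WT arrays. The helicase genes peak at 0.149 on flox 2, where the macrophage and T cell markers are also highest, and on flox 4 the macrophage markers are at -0.44. On flox 1 the macrophage markers are at 0.36 and the helicase genes at 0.0019.

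Other genes of the replication pathway were read from lists chosen for their roles, with the same fit. No gene of these lists passed the adjusted threshold in limma. Over all genes tested, 3.79% had an unadjusted p under 0.05 and 1.97% did not overlap between the groups. Genes without overlap numbered 2 of 29 for polymerases and the replisome and 1 of 9 for nucleotide supply. They numbered 1 of 26 for S phase entry, 3 of 19 for mitosis and 0 in the other lists. Of the 10 tested genes for origin recognition and the control of licensing, 9 averaged higher in flox, with a median difference of 0.061 and 0 at an unadjusted p under 0.05. The largest was Dbf4, the activator of the Cdc7 kinase that phosphorylates the ring, at 0.27 (SE 0.13). Its level was 7.01, 7.29, 7.08 and 6.60 on flox arrays 1 to 4, against 6.77, 6.86, 6.61 and 6.66 on WT arrays 1 to 4, so flox 4 was the lowest of all. Orc5 differed by 0.19 (SE 0.10), Orc6 by 0.097 (SE 0.078) and Mcmbp, which binds MCM subunits, by 0.073 (SE 0.054). Orc5, Dbf4 and Mcm6 each had a flox 4 value inside or under the WT range. The MCM relatives Mcm9, a helicase of homologous recombination, and Mcm3ap, named for binding Mcm3, differed by 0.059 and 0.011.

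Among the 7 tested helicase activation genes, 6 averaged higher in flox and 1 had an unadjusted p under 0.05 (median difference 0.066). That gene was Donson, a factor needed to assemble the active helicase, at 0.25 (SE 0.10). Its WT mean of 6.38 was close to the filter at 6.35, and WT 2 (6.34) and WT 4 (6.29) lay under it. Topbp1 differed by 0.092 and the GINS subunit gene Gins4 by 0.068, while Recql4 differed by -0.13 (SE 0.09). Of 29 genes for polymerases and the replisome, 19 averaged higher in flox, with a median of 0.040. An unadjusted p under 0.05 was reached by 3 of the 29, beside 3.79% of all genes. These 3 were Pole2, a subunit of the leading strand polymerase (0.25, SE 0.09), Lig1, which joins Okazaki fragments (0.15, SE 0.06), and Pola1, the catalytic subunit of the primase-bound polymerase (0.14, SE 0.06). Lig1 was at 7.59, 7.73, 7.73 and 7.61 on flox arrays 1 to 4, against 7.50, 7.48, 7.56 and 7.53 on WT arrays 1 to 4, without overlap. Prim2, a primase subunit, differed by 0.20 (SE 0.10).

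The 9 genes of nucleotide supply had a median difference of 0.053, with 7 higher in flox and 0 at an unadjusted p under 0.05. Rrm2, the regulated subunit of ribonucleotide reductase, differed by 0.17 (SE 0.10). Cad, Dtymk and Tyms, of pyrimidine synthesis, differed by 0.096, 0.093 and 0.083. Of the 9 genes for the turnover of licensing factors and of the helicase, 8 averaged higher in flox, with a median of 0.062. Dtl, which directs the destruction of Cdt1, was the 1 gene of these 9 with an unadjusted p under 0.05 (0.24, SE 0.10), beside 3.79% of all genes. Usp37 differed by 0.12, Cul4b by 0.17 and Traip, which acts on the helicase, by -0.16.

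S phase entry genes and mitotic genes had larger medians than the helicase genes. Of 26 S phase entry genes, 21 averaged higher in flox, 5 of them with an unadjusted p under 0.05, and 1 lower gene also reached that p. The median was 0.115, and 3.79% of all genes reached that p. The leading genes were Ccna2, the S phase cyclin A2 (0.31, SE 0.11), E2f5, a repressive E2F (0.16, SE 0.06), the CDK inhibitor Cdkn2c (0.19, SE 0.08) and the G1 to S cyclin gene Ccne2 (0.21, SE 0.09). Ccna2 was at 8.40, 8.88, 8.77 and 8.36 on flox arrays 1 to 4, against 8.20, 8.31, 8.35 and 8.32 on WT arrays 1 to 4, and its groups did not overlap. The mitosis list had 18 of 19 genes higher in flox and 13 with an unadjusted p under 0.05, with a median of 0.24. Its leading genes Prc1 (0.38, SE 0.10), Cdk1 (0.40, SE 0.11), Top2a (0.36, SE 0.12) and Kif11 (0.33, SE 0.11) act in cytokinesis, mitotic entry, chromosome untangling and spindle assembly. On flox arrays 1 to 4 the centred mean of the mitosis list was -0.086, 0.28, 0.22 and 0.024, and on WT arrays it lay between -0.124 and -0.100. The mitosis list thus had a lower mean on flox 1 than on flox 4, while Mcm4, Mcm6, Mcm3 and Mcm7 had the higher value on flox 1. The medians of the lists were not tested against each other.

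**Figure D5:**
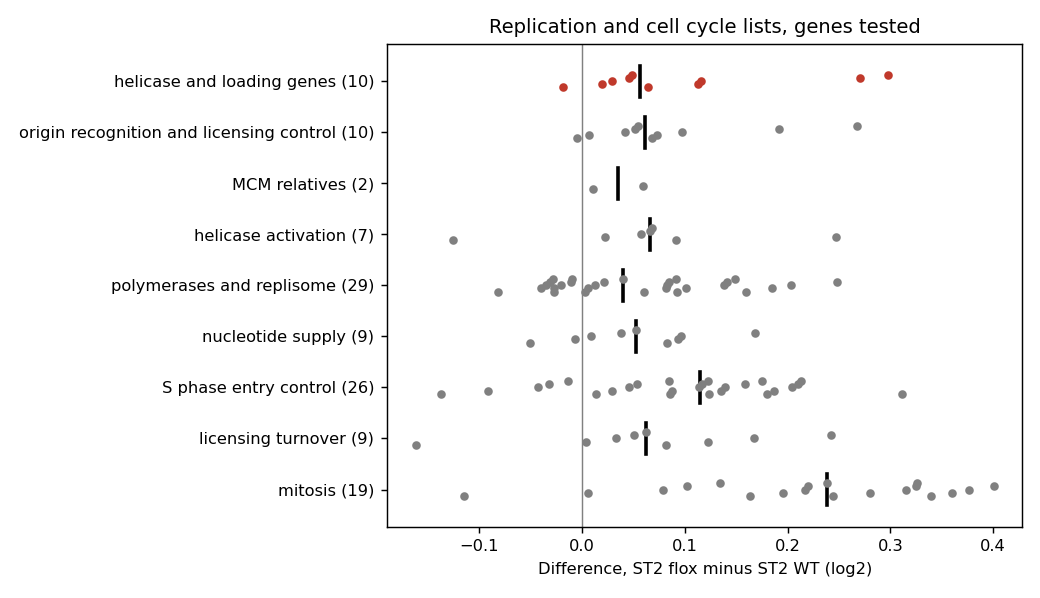
Difference in log2 level, ST2 flox minus ST2 WT, for each tested gene of the helicase and loading genes (red) and of 8 other replication and cell cycle lists (grey), with the number of genes in brackets and the list median as a black bar. The helicase and loading genes have a median of 0.056 and the mitosis list a median of 0.24.

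The genes whose levels followed the mean of the 10 most closely over the 8 arrays were Actb, Cks2, Anln, Arhgef2, Cttn, Tpx2, Ccna2, Gsdmd, Sgo2a and Racgap1. They are the 10 highest of 14997 genes by Pearson correlation, between 0.957 and 0.974, so the values describe a choice of the closest genes and carry no p. All points come from the same arrays and share their normalization. Without arrays flox 2 and flox 3, which lie farthest from the median of the member mean, the correlations of these genes were 0.588 to 0.903. Cks2, a small partner of cyclin-dependent kinases, was at 8.32, 8.65, 8.54 and 8.04 on flox arrays 1 to 4, against 7.92, 7.89, 7.98 and 8.08 on WT arrays 1 to 4. Its flox 4 value lay within the WT range, as for Mcm6. Anln, a scaffold of the cleavage furrow, differed by 0.28 (SE 0.10) and its groups did not overlap, as was true of 1.97% of all genes. Actb, the cytoplasmic beta-actin gene, differed by 0.11 (SE 0.06).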

How the data were processed

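Total RNA of whole muscle was measured on 1 array per sample, 8 in all. The authors deposited a table of intensity values on a linear scale (5.81 to 19080). The submitters' processing notes name RMA and Affymetrix Power Tools, so per the labels the intensities are RMA values, a method that corrects background, makes arrays alike and summarises probes. RMA compresses changes of dim rows and hides a shift shared by most genes. The sources used here do not give versions, the genome build or any row filter. Values were analysed as log2 with no pseudocount added. Of 24922 rows, 21425 named 1 gene in the platform annotation, 1399 several and 2098 none; 21347 matched the RefSeq gene table of GRCm38.p6, and 0 symbols changed. Rows with a mean under the 25th percentile (log2 6.35) were left out and the brightest row per gene was kept, which left 15007 genes.

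Flox and WT, 4 arrays each, were fitted in limma 3.58.1 under R 4.3.3 (group alone, empirical Bayes, two-sided, Benjamini-Hochberg over all genes, threshold 0.05). Exact two-sided permutation tests of single genes used all 70 assignments of the labels, with a smallest p of 0.0286. The fit was tested on simulated data. The members and lists were chosen with earlier results of these data known, so lists are described by counts and medians and not tested. The genes named were all 10 members, from each list up to 4 genes by smallest unadjusted p, and the 10 genes closest to the member mean. Dimmest markers, pairs of subunits and neighbouring genes were named after their values were seen. Alternatives covered the filter, the row per gene, 3 normalizations, the prior, array weights, the sample number as a block and each array left out. For arrays, their number limits the precision.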

Additional observations from a re-analysis of the deposited data

Results flagged for a closer look

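In 49 named genes, each group of 4 arrays was examined for 1 value far from the other 3, or 98 groups in all, and 3 were found; chance gives about 1 in 20. None was one of the 10 helicase and loading genes. Gins4 was at 9.16 on flox 3, with the other flox arrays at 9.07 to 9.08. Mcm9 was at 6.54 on WT 3, with the other WT arrays at 6.83 to 6.89. Tyms was at 7.48 on WT 4, with the other WT arrays at 7.42 to 7.43.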

How the results depend on the processing

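Over 17 planned and 2 added alternatives, none of the 10 genes passed the adjusted threshold. Mcm4 was lowest at 0.031, with the T cell covariate. It kept its sign in every alternative, as Mcm10, Cdt1 and Cdc45 did wherever they were tested. The count of genes called was 0 in each except without flox 4, where 2 genes that are no members passed (0 to 2 over the fits without 1 array). The members at an unadjusted p under 0.05 numbered 4 with array quality weights (Mcm3, Mcm4, Mcm6 and Mcm7), where 12.9% of all genes (1932) had that p, 0 with the T cell covariate (6.43%, 965 genes), and 1 to 4 without 1 array: 1 without flox 2 (1.64%, 246 genes) or WT 3 (2.73%, 410 genes) and 4 without flox 4 (20%, 3003 genes). The members without overlap numbered 1 to 4 without 1 array, being 2 without flox 1, where 4.59% of all genes did not overlap, and 4 without flox 4, where 16.7% did not. The median difference of the members was 0.038 to 0.103 without 1 array, 0.089 with array weights, 0.077 with quantile normalization and 0.083 with cyclic loess. It was 0.067 with the macrophage covariate, -0.036 with the T cell covariate and 0.115 over the 5 genes that a filter at the 50th percentile left. Cdc6 turned to 0.029 with quantile normalization, 0.029 with cyclic loess and 0.051 with array weights. With the T cell covariate Mcm2 was at -0.042, Mcm3 at -0.094, Mcm5 at -0.065, Mcm6 at -0.064 and Mcm7 at -0.030. Over the fits without 1 array, Mcm2 ranged from -0.0014 to 0.049, Mcm5 from -0.016 to 0.037, Cdc6 from -0.075 to 0.029, Mcm10 from 0.0015 to 0.12, Cdc45 from 0.020 to 0.070 and Cdt1 from 0.018 to 0.098. The causes were not tested. With the filter at the 50th percentile 5 of the 10 genes were tested. The exact permutation p of Mcm4 was 0.0571 each time a WT array was left out and 0.0286 each time a flox array was left out. Its groups did not overlap in any of these fits.

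The groups share sample numbers, and whether these numbers pair the samples could not be settled from 4 pairs. The correlation across genes of the deviations from the group means was over 0.1 for 2 of the 4 same-numbered pairs. These were number 2 (0.35) and number 3 (0.25), and 1 of 4 flox arrays was closest to its own number. Flox 1 was closest to WT 2 (0.27) and flox 3 to WT 4 (0.32). With the replicate block 0 genes were called, 694 had an unadjusted p under 0.05, and Mcm4 and Mcm6 remained the 2 members at that p (limma 0.00349 and 0.0294).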

Other observations

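Genes that lie beside or within the members on the chromosome had values of their own. Prkdc, the catalytic subunit of the DNA-dependent protein kinase, begins 44 bases from Mcm4 in the RefSeq table, and differed by 0.11 (SE 0.07) with overlapping groups, where Mcm4 differed by 0.30. The difference between these differences was not tested. The microRNA genes Mir25, Mir93 and Mir106b lie within Mcm7 and have array rows of their own, which differed by -0.16 (SE 0.10), -0.12 (SE 0.08) and -0.032 (SE 0.093), where Mcm7 differed by 0.12. None of these genes had an unadjusted limma p under 0.05.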
